A study of Mus musculus with 36 samples.

Results

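Cytochrome P450 enzymes of families 1 to 3 are the drug, toxin and steroid oxidising monooxygenases of the liver. The genes were taken by name: every gene number in the deposited tables whose mouse symbol is Cyp1, Cyp2 or Cyp3 followed by a subfamily letter and a number and whose RefSeq type is protein-coding. RefSeq lists 57 such genes, and 50 of them had a row in the paired-end table of 19001 genes. The single-end table of 17697 genes had 47 of them, all of which were also in the paired-end table. The pseudogenes that match the name, Cyp2d13 and Cyp2j7, were left out. The 50 genes comprise 3 of family 1, 7 of subfamily CYP3A and 40 of family 2, among them 13 of CYP2C and 8 of CYP2D.

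These enzymes sit in the membrane of the endoplasmic reticulum and insert an oxygen atom into a substrate, with electrons passed from NADPH by cytochrome P450 oxidoreductase (Por) and, for some reactions, cytochrome b5 (Cyb5a). Their transcription in hepatocytes depends on liver factors such as HNF4A and on xenobiotic sensors: the aryl hydrocarbon receptor (Ahr) for family 1, the constitutive androstane receptor (Nr1i3) for CYP2B and the pregnane X receptor (Nr1i2) for CYP3A. Many of them are zoned across the liver lobule, Cyp2e1 and Cyp1a2 around the central vein and Cyp2f2 around the portal tract.

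Total RNA of mouse liver, spleen and thymus was sequenced in 36 libraries, in 12 groups of 3. In the single-end table, tissues titled d24 X-ray stood beside tissues titled wt X-ray, where d24 stands for p53 that lacks its C-terminal end and wt for wild-type p53. In the paired-end table, wt tissues after X-rays stood beside untreated wt tissues. The treatment field gives X-rays at 2 Gy and 3 h for 18 libraries: the 9 X-ray ones of the paired-end table and, in the single-end table, d24 spleen, wt liver and wt thymus. The other 9 single-end libraries, d24 liver, d24 thymus and wt spleen, are titled X-ray but have control in that field, and all 9 d24 libraries have WT as cell type. By that field each single-end comparison sets an irradiated against a control group, with d24 as the irradiated one in spleen and as the control in liver and thymus. The labels state no strain, age, sex or number of animals, and do not say that the 3 replicates of a group came from separate animals, so p-values measure the spread between these libraries. Values are units of the deposited signal, which is the reads of a gene scaled by the authors to an effective library size. The libraries held 44348579 to 81322683 reads in the paired-end table and 20481048 to 38042710 in the single-end table, and 1 read was worth 0.00991 to 0.0377 units in the paired-end libraries and 0.0171 to 0.0828 in the single-end ones. The tables were normalised separately, and no test joined them.

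Cdkn1a, the cell cycle inhibitor that p53 induces after DNA damage, was used to check the labels. It stood at 115, 126 and 109 units of signal in X-ray livers and at 11.7, 15.9 and 16.0 in untreated livers of the paired-end table. In the single-end table it stood at 360, 364 and 108 in livers labelled d24 X-ray, against 17.7, 34.4 and 147 in livers labelled wt X-ray. Spleens labelled d24 X-ray held 319, 416 and 384 units, and those labelled wt X-ray held 5.46, 7.36 and 9.37. Thymuses labelled d24 X-ray held 25.8, 20.4 and 67.8 units, and those labelled wt X-ray held 16.5, 11.3 and 16.1. Paired-end thymuses held 112, 97.7 and 113 units after X-rays and 12.5, 11.1 and 15.4 untreated. The single-end wt thymuses thus stood near the untreated level, against both their title and their treatment field. The single-end spleens titled wt X-ray thus stood near untreated paired-end spleens (3.74 to 6.32), which goes with their treatment field and against their title. In liver the order mostly ran against the treatment field: the d24 livers, control by that field, held the most Cdkn1a in 2 of 3 libraries, and 2 of the 3 single-end livers labelled wt X-ray stood below every X-ray liver of the paired-end table. The groups of the single-end table are therefore called by their titles only, and in that table genotype and irradiation cannot be told apart. A signal per whole gene cannot show the deletion of the last part of Trp53, so the genotype itself was not checked.

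The promoters of the genes that the results turn on are shown first, as the 250 bases before the RefSeq start site in build GRCm38.p6, read in the direction of the gene. Cyp2f2 was the member that passed in liver between d24 and wt, Cyp2e1 was the most abundant member of the liver and passed in X-ray spleen, and Cyp1a2 had the largest X-ray difference in liver. Cyp2c40 and Cyp2c67 had the smallest X-ray p-values in liver. Cyp2a4 and Cyp2a5 are a near-identical pair that passed together in X-ray thymus. Capitals mark a TATA box (TATAAA), a p53 decamer or a sequence like the HNF1 palindrome.
Cyp2f2, chr7:27119705-27119954, plus strand: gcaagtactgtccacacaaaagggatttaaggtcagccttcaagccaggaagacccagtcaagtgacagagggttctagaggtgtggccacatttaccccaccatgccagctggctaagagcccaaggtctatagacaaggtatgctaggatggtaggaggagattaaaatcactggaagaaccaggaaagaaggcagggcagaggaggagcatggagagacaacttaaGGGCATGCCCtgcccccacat
Cyp2e1, chr7:140763569-140763818, plus strand: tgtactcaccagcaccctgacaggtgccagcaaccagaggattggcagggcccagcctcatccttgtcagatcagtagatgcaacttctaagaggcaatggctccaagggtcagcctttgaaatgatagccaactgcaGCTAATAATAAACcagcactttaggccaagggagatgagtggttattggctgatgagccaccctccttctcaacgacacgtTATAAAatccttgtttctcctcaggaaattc
Cyp1a2, chr9:57683656-57683905, minus strand: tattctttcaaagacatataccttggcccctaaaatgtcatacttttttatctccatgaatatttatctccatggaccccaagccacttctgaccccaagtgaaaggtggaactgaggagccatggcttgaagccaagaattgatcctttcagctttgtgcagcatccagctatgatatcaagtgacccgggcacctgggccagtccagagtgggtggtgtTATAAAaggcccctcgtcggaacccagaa
Cyp2c40, chr19:39812815-39813064, minus strand: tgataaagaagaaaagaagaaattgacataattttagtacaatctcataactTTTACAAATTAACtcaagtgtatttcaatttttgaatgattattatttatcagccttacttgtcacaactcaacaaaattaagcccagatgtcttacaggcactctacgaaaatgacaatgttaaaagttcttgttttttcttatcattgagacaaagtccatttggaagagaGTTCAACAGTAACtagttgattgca
Cyp2c67, chr19:39649043-39649292, minus strand: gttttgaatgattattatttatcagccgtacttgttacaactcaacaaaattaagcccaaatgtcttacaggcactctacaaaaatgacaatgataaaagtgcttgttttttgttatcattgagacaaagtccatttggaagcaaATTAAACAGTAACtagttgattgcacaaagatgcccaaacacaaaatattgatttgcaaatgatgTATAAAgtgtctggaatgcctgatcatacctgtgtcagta
Cyp2a4, chr7:26306942-26307191, plus strand: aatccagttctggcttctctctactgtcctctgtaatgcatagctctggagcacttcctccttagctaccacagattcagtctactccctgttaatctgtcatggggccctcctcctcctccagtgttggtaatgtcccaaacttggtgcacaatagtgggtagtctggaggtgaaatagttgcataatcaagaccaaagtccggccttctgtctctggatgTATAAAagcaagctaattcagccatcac
Cyp2a5, chr7:26835089-26835338, plus strand: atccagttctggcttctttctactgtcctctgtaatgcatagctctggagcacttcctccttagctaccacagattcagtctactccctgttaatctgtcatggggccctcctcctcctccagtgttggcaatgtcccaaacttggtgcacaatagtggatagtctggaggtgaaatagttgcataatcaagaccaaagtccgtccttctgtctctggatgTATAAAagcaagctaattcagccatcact

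Both strands of the window from 250 bases before to 50 bases after the start were searched in all 27025 genes of the RefSeq promoter table, which held 43 of the members. TATAAA was present in 23 of the 43 members and in 14.2% of all promoters. It began 31 bases before the start of Cyp2e1, 29 before those of Cyp1a2 and Cyp2a5, 28 before that of Cyp2a4 and 40 before that of Cyp2c67, and it was not found in the window of Cyp2f2. In Cyp2c40 it lay 41 bases after the start, outside the stretch shown. Cyp2c67, on the minus strand, reaches to 39649079 as a gene, while the stretch shown begins at 39649043. Part of that stretch thus lies inside the gene, and its positions count from an inner start. The HNF1 palindrome, with up to 3 of its 12 fixed letters allowed to differ, was found in 7 of 43 members and in 8.57% of all promoters. Those 7 were Cyp2c37, Cyp2c40, Cyp2c67, Cyp2c68, Cyp2c69, Cyp2e1 and Cyp2j5. The p53 decamer consensus was found in 4 of 43 members, Cyp2c29, Cyp2c38, Cyp2c55 and Cyp2f2, and in 8.37% of all promoters. In Cyp2f2 it began 21 bases before the start, with the letters GGGCATGCCC. The core of the xenobiotic response element, GCGTG, was in 7 of 43 members, Cyp1a1 and Cyp1b1 among them, and in 32.5% of all promoters. The motifs overlapped nowhere in the sequences shown. A match describes letters in this window and says nothing of binding.

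Near-identical copies limit what reads can be assigned to. Coding sequences were compared within each subfamily, and 26 members were in 27 pairs of at least 90% identity. Cyp2a4 and Cyp2a5 were 98.4% identical over their coding sequence and 98.0% over the promoter window. Cyp2c67 was 97.7% identical to Cyp2c69 and 97.1% to Cyp2c68, Cyp3a25 was 97.5% identical to Cyp3a59, and Cyp2c37 was 96.1% identical to Cyp2c50. The way reads shared by such copies were counted is not stated, so values within such a pair are uncertain. Cyp2c38 and Cyp2c39 overlap in the genome.

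Untreated liver expressed nearly the whole family, and spleen and thymus very little of it. Levels between genes are given per kilobase of exon, as the mean ± SD of 3 libraries. Cyp2e1, which oxidises ethanol and acetaminophen, led with 5364 ± 1169 units per kilobase. Cyp3a11, the main drug-metabolising CYP3A of mouse liver, followed with 1561 ± 643, and Cyp2c29, an arachidonic acid epoxygenase, with 1203 ± 183. Cyp2c70, which makes muricholic acids in rodents, stood at 973 ± 115 and Cyp2c37 at 951 ± 79.9. Cyp2c68 followed at 799 ± 55.9 and Cyp2d26 at 644 ± 53.2. Cyp2f2, which activates naphthalene in mouse airways, stood at 604 ± 88.8, Cyp1a2, which oxidises caffeine and arylamines, at 589 ± 146, and Cyp2c50 at 583 ± 62.3. The ranges of 3 libraries did not overlap between Cyp2e1 and Cyp3a11, between Cyp2c29 and Cyp2c70, between Cyp2c37 and Cyp2c68 and between Cyp2c68 and Cyp2d26. The other neighbours in this order overlapped. Cyp1a1, the family 1 enzyme that aryl hydrocarbons induce, was at 2.55 ± 0.97 units per kilobase, and Cyp2b10, the standard target of the constitutive androstane receptor, at 12.1 ± 0.81.

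The untreated livers were set against untreated spleens and thymuses together, with limma on log2(signal + 0.5) and Benjamini-Hochberg adjustment over all genes tested, at a threshold of 0.05. Of the 47 members tested, 45 were higher in liver, 1 was lower and 1 did not pass. Of the 15141 genes tested, 88.6% passed in either direction and 43.6% were higher in liver. Many members reached the minimum signal for testing through the livers alone. Such members could hardly come out other than higher in liver, so the count of 45 largely restates where they were detected. With a library left out, the members called fell to as few as 12, since fewer met the filter without 1 of the livers. Cyp2e1 was higher in liver by 11.98 ± 0.42 (log2, SE) with an adjusted p of 4.9e-11. Cyp1b1, a family 1 enzyme known mainly outside the liver, was the exception, lower in liver by -3.81 ± 0.11 with an adjusted p of 6.2e-12. Per kilobase it stood at 0.109 units in liver, 4.58 in spleen and 1.50 in thymus. Cyp2s1, an enzyme of epithelia, differed by 0.11 ± 0.14, with an adjusted p of 0.480. Cyp2a5, the coumarin 7-hydroxylase, was at 502 units per kilobase in liver and still at 7.19 in thymus, against 0.0502 in spleen. In bulk tissue, fewer cells of a type and less RNA per cell cannot be told apart.

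**Figure D1:**
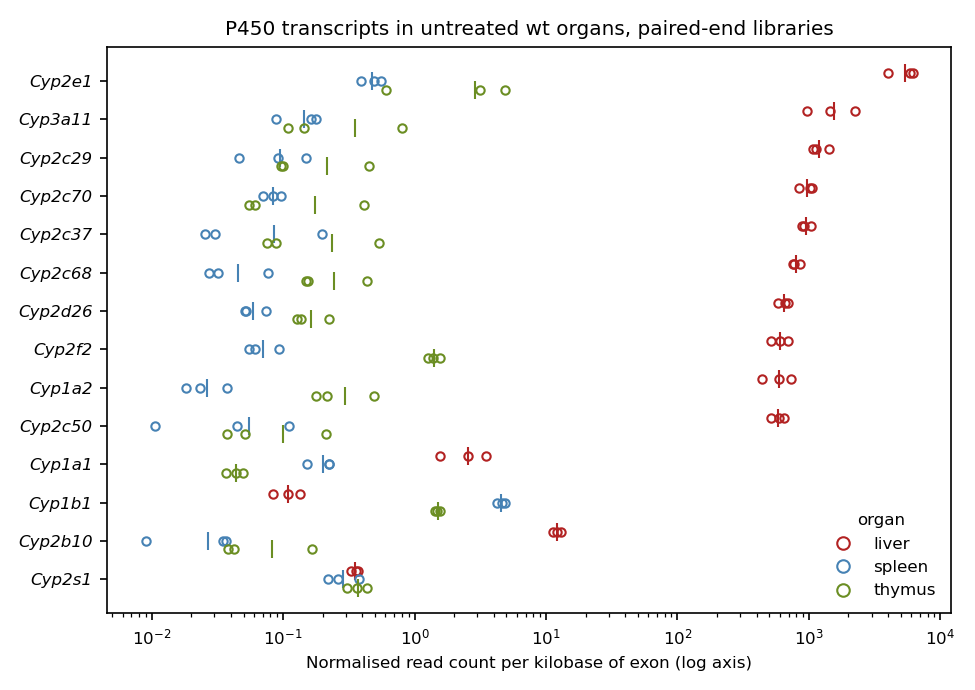
Signal per kilobase of exon on a log axis in untreated liver, spleen and thymus for the 10 members highest in liver and for Cyp1a1, Cyp1b1, Cyp2b10 and Cyp2s1; circles are libraries and vertical ticks are means. Cyp2e1 leads in liver at 5364 units per kilobase, and Cyp1b1 is the gene whose liver level (0.109) lies below spleen (4.58) and thymus (1.50).

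In liver, 3 h after X-rays at 2 Gy, no member passed the test. The members together held 2.35%, 2.53% and 2.30% of all signal in X-ray livers, against 2.38%, 2.35% and 2.42% in untreated livers. That is 0 of the 46 members tested in either direction, beside 0.242% of the 13250 genes tested. At an unadjusted p under 0.05 there were 12 of the 46 members, beside 21.9% of all genes, and DESeq2 called 4 members, beside 3.84% of all genes. The groups did not overlap for 8 members, 6 higher and 2 lower in X-ray livers, beside 27.4% of all genes. The median log2 difference was -0.05 over the members and -0.05 over all genes tested.

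The CYP2C subfamily held 4 of the 8 members whose groups did not overlap. Cyp2c67 had 481, 617 and 508 units in X-ray livers, against 363, 349 and 351 in untreated livers. Its groups did not overlap, with a difference of 0.59 ± 0.12 (log2, SE) and an adjusted p of 0.131. Cyp2c40 had 1455, 1563 and 1438 units in X-ray livers, against 985, 982 and 1069 in untreated livers. This was the smallest adjusted p among the members, 0.110, at a difference of 0.55 ± 0.11. Cyp2c69 had 1287, 1675 and 1171 units in X-ray livers and 1023, 888 and 901 in untreated livers, 0.54 ± 0.15 with an adjusted p of 0.185. Cyp2c68 had 1715, 1838 and 1571 units in X-ray livers and 1332, 1311 and 1488 in untreated livers, 0.31 ± 0.12 with an adjusted p of 0.203. These 4 genes are copies of each other in part, as given above, so they are not 4 independent measurements. Of the 13 CYP2C members tested, 11 had a positive difference, with a median of 0.31. None of them passed the limma test; DESeq2 called Cyp2c40, Cyp2c67 and Cyp2c69.

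Among the targets of xenobiotic sensors, Cyp3a13 had 292, 438 and 358 units in X-ray livers, against 246, 237 and 256 in untreated livers. The lowest X-ray library lay above the highest untreated one, at 0.54 ± 0.15 with an adjusted p of 0.184, and DESeq2 called this gene too. Cyp2b10 had 28.5, 42.7 and 41.8 units in X-ray livers, against 27.3, 25.7 and 23.9 in untreated livers, 0.53 ± 0.17 with an adjusted p of 0.191. Its first X-ray library lay just above the untreated ones. Cyp3a11 had 5474, 10876 and 11464 units in X-ray livers, against 4956, 7440 and 11449 in untreated livers, and the groups overlapped across the whole range. Of the 7 CYP3A members, 6 had a positive difference, with a median of 0.23.

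On the other side stood the CYP2D and CYP1A genes. Cyp2d11 had 62.5, 41.3 and 43.5 units in X-ray livers, against 69.6, 66.1 and 62.7 in untreated livers, -0.45 ± 0.16 with an adjusted p of 0.196. The first X-ray library lay just below the untreated ones and the other two well below. Cyp2d34, at 1.34, 1.02 and 1.14 units in X-ray livers and 2.08, 1.87 and 1.51 in untreated livers, was the other member lower without overlap. Of the 8 CYP2D members, 7 had a negative difference, with a median of -0.36. Cyp1a2 had 1490, 446 and 392 units in X-ray livers, against 1479, 1188 and 890 in untreated livers. Its first X-ray library was as high as any untreated one, the other two were below all of them, and the difference of -0.86 ± 0.46 had an adjusted p of 0.279. Cyp1a1 had 8.31, 3.09 and 1.99 units in X-ray livers and 9.77, 7.13 and 4.39 in untreated livers, with the same split and an adjusted p of 0.321. Cyp2e1 had 10983, 12659 and 9120 units in X-ray livers, against 12780, 13273 and 8676 in untreated livers, which overlapped, at -0.07 with an adjusted p of 0.853.

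The first X-ray liver library decided how many members passed. For 35 of the 46 members (76.1%) it lay nearer to the untreated mean than to the mean of the other X-ray livers, beside 68.0% of all genes. The same count was 8 for the second X-ray library and 19 for the third. Without the first library, 15 members passed, 6 higher and 9 lower, beside 21.6% of all genes, 7.10% higher and 14.5% lower. The 6 higher ones were Cyp2c67, Cyp2c40, Cyp2c69, Cyp3a13, Cyp3a25 and Cyp2b10. The 9 lower ones were Cyp1a1, Cyp1a2, Cyp2a22, Cyp2b9, Cyp2b13, Cyp2d10, Cyp2d11, Cyp2d40 and Cyp2f2. In that fit Cyp1a2 was lower by -1.47 ± 0.20 with an adjusted p of 0.0068, and Cyp2d40 by -1.28 ± 0.13 with an adjusted p of 0.0038. Cdkn1a in the first X-ray library (115) was as high as in the other two.

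**Figure D2:**
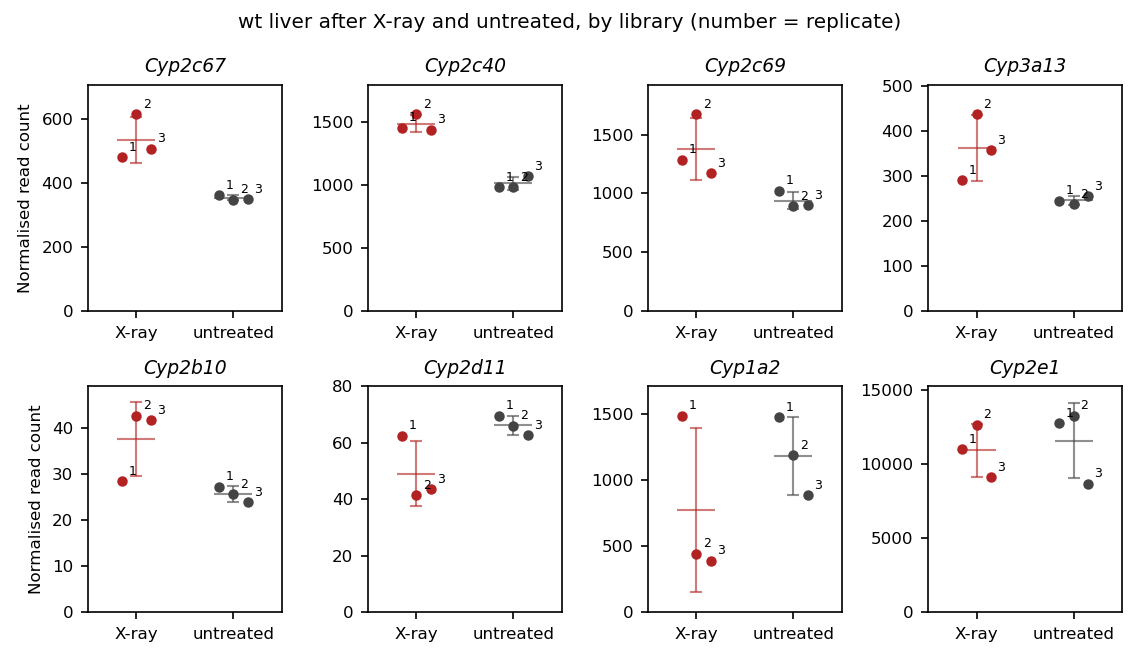
Signal of 8 members in the 3 X-ray and the 3 untreated livers, each panel with its own axis from 0; numbered points are libraries and bars are the mean ± SD. Library 1 of the X-ray group sits among the untreated livers for Cyp1a2 (1490 against 890 to 1479) but above them for Cyp2c40 (1455 against 982 to 1069).

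Markers of liver zones were read in the same livers. The 8 pericentral markers other than P450 genes all had a negative difference, with a median of -0.66, and none passed. Their summed signal was 3346 to 6072 in X-ray livers and 4853 to 5947 in untreated livers. Glul, glutamine synthetase of the last cells around the central vein, had 1246, 451 and 387 units in X-ray livers, against 1412, 1179 and 885 in untreated livers. The first library stood with the untreated livers here too. Of the 8 periportal markers, 5 had a positive difference and none passed, with summed signal of 16886 to 18348 in X-ray livers and 12822 to 13980 in untreated livers. Their part in the P450 values was not tested.

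Of the machinery around the enzymes, 0 of the 16 electron donors and heme supply genes passed after X-rays, with a median of -0.12. Por had 511, 700 and 553 units in X-ray livers, against 442, 454 and 300 in untreated livers, without overlap, at 0.57 ± 0.19 and an adjusted p of 0.192. Cyb5a differed by 0.00 ± 0.12. Of the 18 sensors and liver regulators tested, 2 fell, both liver transcription factors. Onecut1 had 3.07, 5.24 and 2.55 units in X-ray livers, against 19.4, 23.7 and 28.6 in untreated livers, -2.60 ± 0.25 with an adjusted p of 0.0053. Foxa2 had 21.7, 17.0 and 17.8 units in X-ray livers, against 37.7, 40.6 and 38.1 in untreated livers, -1.03 ± 0.13 with an adjusted p of 0.0173. All 3 X-ray libraries, the first included, were low for both. Ahr (0.65 ± 0.20, adjusted p 0.191), Nr1i2 (0.27), Nr1i3 (-0.23), Hnf4a (0.40) and Rxra (-0.14) did not pass.

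Growth hormone signalling sets the sex bias of many liver P450 genes, and 2 of the 22 genes tested on its list passed. Bcl6, a repressor that growth hormone lowers, had 44.6, 30.8 and 44.0 units in X-ray livers, against 6.35, 8.53 and 8.45 in untreated livers, and rose by 2.28 ± 0.19 with an adjusted p of 0.0021. Cish, a STAT5 target, had 5.27, 8.85 and 4.50 units in X-ray livers, against 47.8, 94.9 and 39.4 in untreated livers, and fell, at -3.14 ± 0.34 with an adjusted p of 0.0093. Neither set of 3 libraries overlapped the other for these genes. None passed of the 18 P450 genes of other families tested (median -0.20), the 32 conjugation enzymes (median -0.06), the 16 clock genes (median 0.68) and the 6 targets of the aryl hydrocarbon receptor other than P450 (median -0.09). Among 10 hepatocyte markers, Tat, tyrosine aminotransferase, was the 1 that passed, at 1.39 ± 0.17 with an adjusted p of 0.0173.

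Between livers labelled d24 X-ray and wt X-ray, Cyp2f2 was the 1 member of 46 tested that passed, beside 0.526% of the 13695 genes tested, of which 0.277% were higher. It had 278, 437 and 371 units in livers labelled d24, against 90.3, 107 and 113 in those labelled wt. Every d24 library stood above the highest wt library, and the difference was 1.78 ± 0.24 (log2, SE) with an adjusted p of 0.0170. Whether the genotype or the treatment goes with this difference cannot be told apart. The call was lost under 6 alternatives. These were limma without trend (0.0708), edgeR's quasi-likelihood test (0.0507), a single fit of the 18 libraries (0.0796) and the replicate number as a block. The others were leaving out the first (0.105) or the second (0.109) wt library. Its difference stayed between 1.64 and 1.96 over all alternatives. In the separate paired-end comparison, Cyp2f2 had 1185, 804 and 840 units in X-ray livers, against 1211, 1408 and 1049 in untreated livers. That difference was -0.39 ± 0.18, with an adjusted p of 0.239 in limma.

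Differences between d24 and wt livers were wide but uneven across libraries. Of the 46 members, 13 differed by at least 1 on the log2 scale, 9 had an unadjusted p under 0.05, beside 13.4% of all genes, and 11 had groups without overlap, 4 higher and 7 lower, beside 19.1% of all genes. The median difference was -0.02 over the members and -0.08 over all genes, and the median absolute difference was 0.50 and 0.37. The members held 0.520%, 0.425% and 0.706% of all signal in livers labelled d24, against 0.911%, 0.890% and 0.800% in those labelled wt. The d24 libraries were all below the wt libraries in this share, which is given without a test.

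Higher without overlap, beside Cyp2f2, were Cyp2u1, Cyp3a13 and, at a lower level, Cyp2s1 (5.55, 3.04 and 2.81 units in d24 livers, against 2.43, 1.74 and 0.302 in wt livers). Cyp2u1, a fatty acid hydroxylase, had 9.66, 5.29 and 15.1 units in d24 livers, against 1.38, 1.90 and 1.39 in wt livers, 2.25 ± 0.51 with an adjusted p of 0.0920. The 3 wt values rest on 21 to 23 reads each. Cyp3a13 had 320, 1039 and 173 units in d24 livers, against 114, 110 and 118 in wt livers, 1.76 ± 0.51 with an adjusted p of 0.182. The second d24 library stood far above the others.

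Lower without overlap were 7 members, none of which passed. Cyp2e1 had 1230, 2101 and 2235 units in d24 livers, against 4432, 5825 and 3746 in wt livers, -1.36 ± 0.32 with an adjusted p of 0.105. Cyp2c37 had 193, 93.8 and 519 units in d24 livers and 683, 788 and 713 in wt livers, -1.78 ± 0.49 with an adjusted p of 0.163. Cyp2c50, its near copy, had 58.0, 37.3 and 131 units in d24 livers and 143, 141 and 167 in wt livers, -1.19 ± 0.39 with an adjusted p of 0.237. For both, the third d24 library was the nearest to wt. Cyp2r1, a vitamin D 25-hydroxylase, had 2.49, 4.97 and 2.74 units in d24 livers and 11.8, 8.44 and 5.73 in wt livers, -1.23 ± 0.47 with an adjusted p of 0.299. Cyp3a11 had 1591, 1012 and 1922 units in d24 livers and 2182, 2203 and 2300 in wt livers, -0.61 ± 0.28 with an adjusted p of 0.390. The groups were separate, with the wider spread in the d24 livers. Cyp2d26 had 915, 798 and 1205 units in d24 livers and 1585, 1540 and 1291 in wt livers, -0.61 ± 0.25 with an adjusted p of 0.331. Cyp2d10 had 303, 308 and 302 units in d24 livers and 318, 362 and 311 in wt livers, and differed by -0.11 ± 0.21.

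The family 1 genes and Cyp2b10 did not pass either. Cyp1a2 had 61.4, 61.8 and 173 units in d24 livers, against 279, 157 and 201 in wt livers, -1.24 ± 0.40 with an adjusted p of 0.218. The third d24 library lay inside the wt range. Cyp1a1 had 2.99, 2.48 and 6.88 units in d24 livers and 7.88, 3.31 and 9.29 in wt livers. Cyp1b1 had 0, 2.80 and 1.62 units in d24 livers and 1.18, 1.74 and 0.362 in wt livers, and Cyp2b10 had 2.99, 2.08 and 0.492 units in d24 livers and 10.1, 2.32 and 4.70 in wt livers. These low values overlapped between the groups, and their adjusted p-values were 0.625 for Cyp1a1, 0.991 for Cyp1b1 and 0.413 for Cyp2b10. All 4 CYP2B members and both CYP1A members had a negative difference, and 6 of the 7 CYP3A members had a positive one.

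The calls depended on the library and the tool. DESeq2 called Cyp2f2, Cyp2u1 and Cyp3a13 higher and Cyp2e1 lower, beside 3.95% of all genes. Without the third d24 library, limma called Cyp2f2 and Cyp3a13 higher and Cyp1a2, Cyp2c37 and Cyp2c50 lower, beside 2.31% of all genes. The third d24 liver was also the one with the lowest Cdkn1a of its group, at 108 units.

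**Figure D3:**
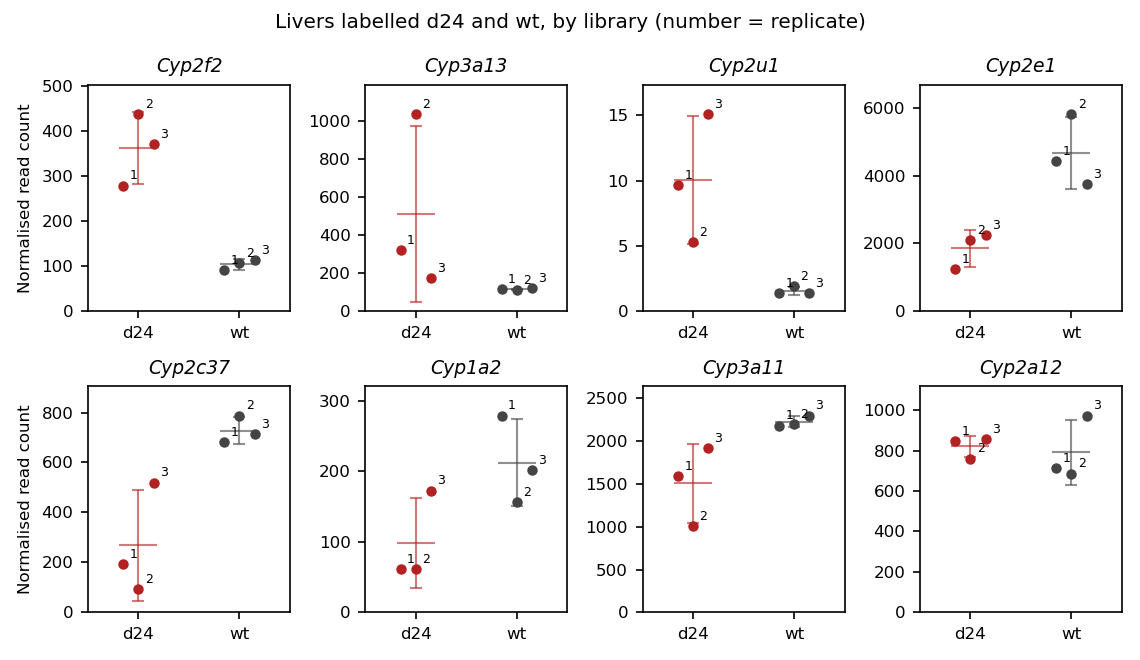
Signal of 8 members in the 3 livers labelled d24 X-ray and the 3 labelled wt X-ray, each panel with its own axis from 0; numbered points are libraries and bars are the mean ± SD. For Cyp2f2 the d24 livers (278 to 437) all sit above the wt livers (90.3 to 113), while Cyp3a13 spreads from 173 to 1039 among the d24 livers.

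**Figure D4:**
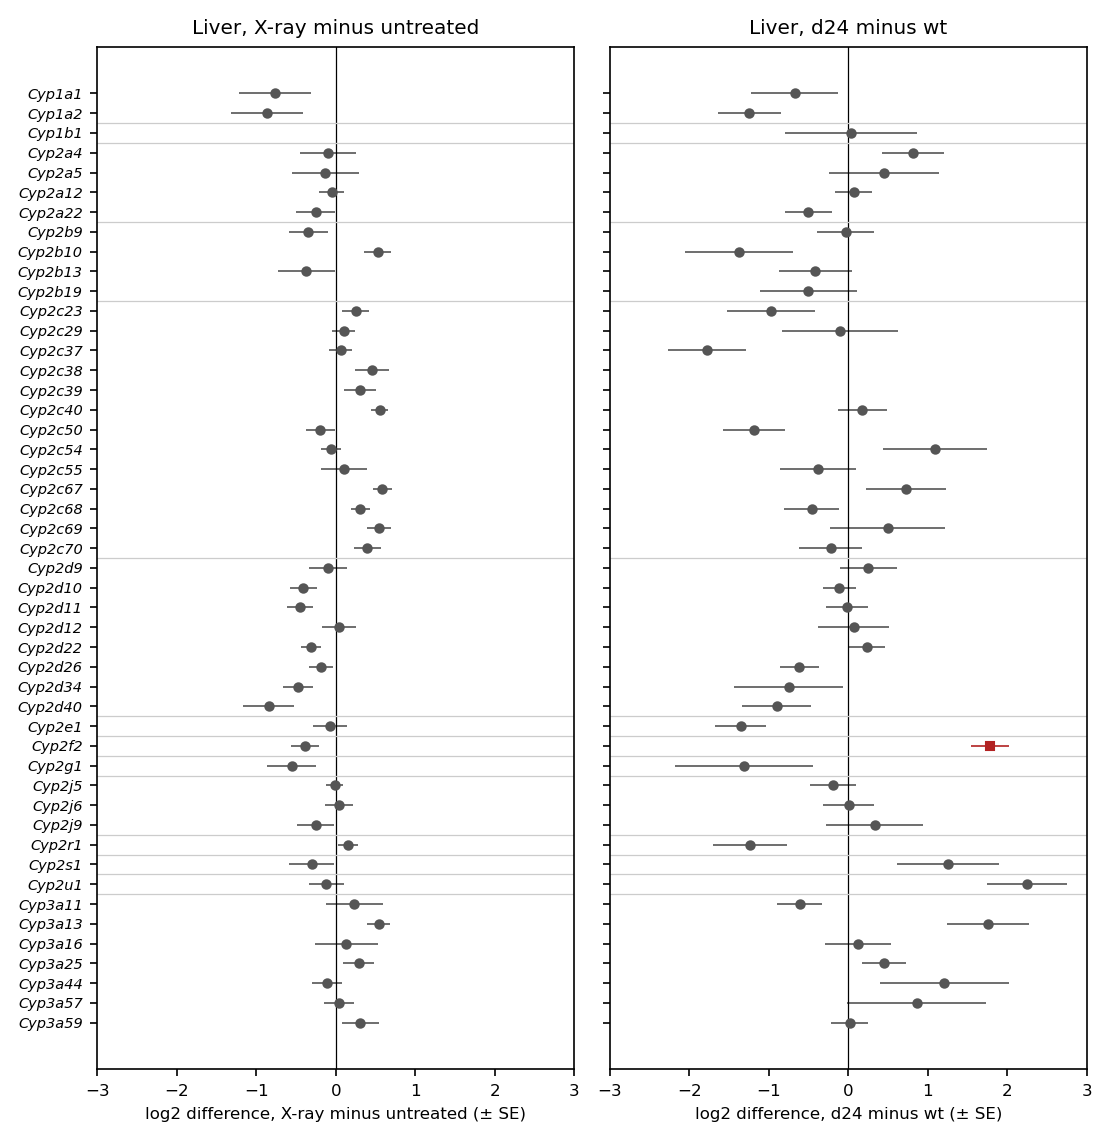
Log2 difference ± SE of every tested member in liver, for d24 minus wt (single-end table) and X-ray minus untreated (paired-end table); filled squares mark an adjusted p under 0.05 in limma. Cyp2f2 in the d24 comparison, at 1.78, is the single such square.

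Zone markers and blood cell markers differed in these livers as well. All 8 periportal markers had a positive difference and 2 rose, Cps1 by 2.21 ± 0.40 with an adjusted p of 0.0458 and Hal by 1.38 ± 0.23 with an adjusted p of 0.0324. Their summed signal was 10027 to 23523 units in d24 livers and 4042 to 6730 in wt livers. Of the 8 pericentral markers, 7 had a negative difference and Lect2 fell, at -2.46 ± 0.38 with an adjusted p of 0.0275. Their sums were 1604 to 1985 in d24 livers and 2461 to 3087 in wt livers. Of the 4 neutrophil markers 3 fell, with sums of 13.2 to 65.6 in d24 livers and 318 to 787 in wt livers. Of the 4 B cell markers 1 fell, with sums of 3.61 to 4.92 in d24 livers and 22.3 to 60.2 in wt livers. The part of these shifts in the P450 values was not tested.

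None of the 16 electron donors and heme supply genes passed between d24 and wt livers, with 13 negative differences and a median of -0.48, and none of the 18 sensors and regulators passed. Por had 424, 1072 and 373 units in d24 livers, against 498, 386 and 315 in wt livers, which overlapped. Cyb5a differed by -0.67 ± 0.26 with an adjusted p of 0.314, Ahr by 0.55, Nr1i2 by 0.54, Nr1i3 by -0.73, Hnf4a by 0.52 and Rxra by 0.41, and none of them passed. Of 19 P450 genes of other families, Cyp17a1 rose; this steroid 17-hydroxylase had 122, 286 and 12.6 units in d24 livers, against 0, 0.248 and 2.53 in wt livers, 6.21 ± 1.02 with an adjusted p of 0.0312. In paired-end livers it stood at 248, 78.8 and 103 units after X-rays and at 96.2, 68.5 and 87.0 without treatment. Of 32 conjugation enzymes, Gsta3, a glutathione transferase, fell: 378, 250 and 442 units in d24 livers, against 922, 1105 and 1334 in wt livers, -1.67 ± 0.27 with an adjusted p of 0.0312. None passed of the 17 growth hormone genes, 15 clock genes and 6 other targets of the aryl hydrocarbon receptor.

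The wt X-ray livers of both tables share their label and can be laid side by side, with limits. The tables were normalised separately, and reads of near-identical copies may be assigned differently in single-end and paired-end libraries, which was not tested. Cdkn1a was at 17.7, 34.4 and 147 units in the single-end livers and at 115, 126 and 109 in the paired-end ones. A shared label therefore need not mean a shared treatment. Over the 47 members in both, the paired-end values were higher without overlap for 28, the single-end ones for 3 (Cyp2b19, Cyp2d12 and Cyp2d26), and 16 overlapped. Cyp2c29 stood at 3725 to 4027 units in the paired-end livers and at 62.6 to 94.1 in the single-end ones. For these reasons levels of a member in one table are not measured against the other elsewhere. For Cyp2f2 and the non-member Cyp17a1 the values of both tables are printed, as separate comparisons.

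In spleen after X-rays, 3 of the 5 members tested rose; of the 13389 genes tested 40.0% passed in either direction and 19.5% rose. Cyp1b1 had 32.3, 54.3 and 55.0 units in X-ray spleens, against 24.6, 28.6 and 27.0 in untreated spleens, 0.77 ± 0.19 with an adjusted p of 0.0136. Cyp2e1 had 1.29, 14.0 and 11.1 units in X-ray spleens, against 1.05, 0.841 and 1.20 in untreated spleens, 2.14 ± 0.65 with an adjusted p of 0.0282. The second and the third X-ray spleen held nearly all of the Cyp2e1. Cyp2j6, an epoxygenase expressed in many organs, had 2.61, 2.42 and 2.37 units in X-ray spleens, against 1.68, 1.57 and 1.97 in untreated spleens, 0.41 ± 0.13 with an adjusted p of 0.0390. In all 3 genes the groups did not overlap, as for 53.3% of all genes. Same-numbered X-ray and untreated spleens deviated together and with the number as a block Cyp2j6 lost its call, at an adjusted p of 0.0603.

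Albumin moved with Cyp2e1 in those spleens. Alb had 25.7, 325 and 284 units in X-ray spleens, against 21.96, 15.1 and 29.5 in untreated spleens, high in the same 2 libraries. At the ratio of Cyp2e1 to Alb of untreated liver, those Alb values correspond to 1.20, 15.2 and 13.3 units of Cyp2e1 in X-ray spleens and to 1.03, 0.706 and 1.38 in untreated spleens. Measured Cyp2e1 was 1.29, 14.0 and 11.1 units in X-ray spleens and 1.05, 0.841 and 1.20 in untreated spleens. Why Cyp2e1 and Alb were high in the same spleens was not tested. All 8 hepatocyte markers tested rose, with sums of 119 to 578 units in X-ray spleens and 53.6 to 74.3 in untreated spleens. Ass1 (57.5, 70.5 and 62.3 units against 21.9, 22.1 and 20.7) and Hp were high in every X-ray spleen. Alb, Apoa1, Apoa2, Ttr, Ahsg and Serpina1a lay inside the untreated range in the first X-ray spleen. The 4 Kupffer cell markers tested, Cd5l, Marco, C1qa and Adgre1, rose too. They already held 41.3 to 135 units in untreated spleens, so the list name does not give their cell of origin here. Clec4f and Vsig4 of that list did not meet the filter. For Cyp1b1, its ratio to Alb in untreated liver gives under 0.001 units in every spleen. The source of the Cyp1b1 difference was not tested either. No member passed without the third X-ray spleen alone or without the first untreated spleen, and 1 passed without the second untreated spleen. These counts stand without the share of all genes called in the same fits and do not set the members apart from other genes. The first X-ray spleen alone, without the 2 libraries high in Alb, differed from the untreated spleens by 0.27 for Cyp1b1, 0.24 for Cyp2e1 and 0.48 for Cyp2j6 (log2), which is a description of 1 library and no test.

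In thymus after X-rays, 4 of the 13 members tested rose; of the 13810 genes tested 21.3% passed in either direction and 9.77% rose. Cyp3a13 had 1.78, 1.44 and 2.65 units in X-ray thymuses, against 0.929, 0.823 and 1.18 in untreated thymuses, 0.71 ± 0.20 with an adjusted p of 0.0358. Cyp2a5 had 20.8, 19.5 and 27.4 units in X-ray thymuses, against 12.7, 13.5 and 18.5 in untreated thymuses, 0.59 ± 0.16 with an adjusted p of 0.0320. Cyp2a4, a testosterone 15-alpha-hydroxylase, had 4.31, 3.64 and 5.42 units in X-ray thymuses and 2.27, 2.55 and 3.53 in untreated thymuses, 0.60 ± 0.19 with an adjusted p of 0.0480. Since its coding sequence is 98.4% identical to Cyp2a5, the pair may share reads. Cyp2g1, an enzyme of the olfactory mucosa, had 1.63, 1.81 and 2.32 units in X-ray thymuses and 0.950, 1.25 and 1.16 in untreated thymuses, 0.57 ± 0.17 with an adjusted p of 0.0387. The groups of these 4 genes did not overlap, as for 40.6% of all genes. None of them passed without the third X-ray thymus or without the first or the second untreated thymus, and 2 passed without the first X-ray thymus. The share of all genes called in these smaller fits is not given, so the counts do not set the members apart from other genes.

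Albumin did not follow Cyp2a5 in thymus. Alb had 33.5, 63.5 and 951 units in X-ray thymuses, against 116, 14.9 and 16.1 in untreated thymuses. At that ratio these Alb values correspond to 0.141, 0.268 and 4.01 units of Cyp2a5 in X-ray thymuses and to 0.488, 0.0630 and 0.0677 in untreated thymuses. The measured Cyp2a5 lay above these in all 6 libraries. For Cyp3a13 the ratio gives 0.0334, 0.0633 and 0.948 units in X-ray thymuses, against 1.78, 1.44 and 2.65 measured. For Cyp2e1 it gives 1.57, 2.98 and 44.6 units in X-ray thymuses, against 11.0, 3.16 and 44.8 measured. In untreated thymuses it gives 5.43, 0.700 and 0.753 units of Cyp2e1, against 6.74, 1.30 and 10.6 measured. Of the 4 thymic epithelium markers 3 rose, with sums of 565 to 657 units in X-ray thymuses and 347 to 365 in untreated thymuses. All 3 neutrophil markers tested rose as well, with sums of 35.4 to 84.9 units in X-ray thymuses and 20.8 to 37.0 in untreated ones. The 10 hepatocyte markers all had a positive difference, with a median of 1.54, and 1 of them passed. Their part in the P450 values was not tested.

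**Figure D5:**
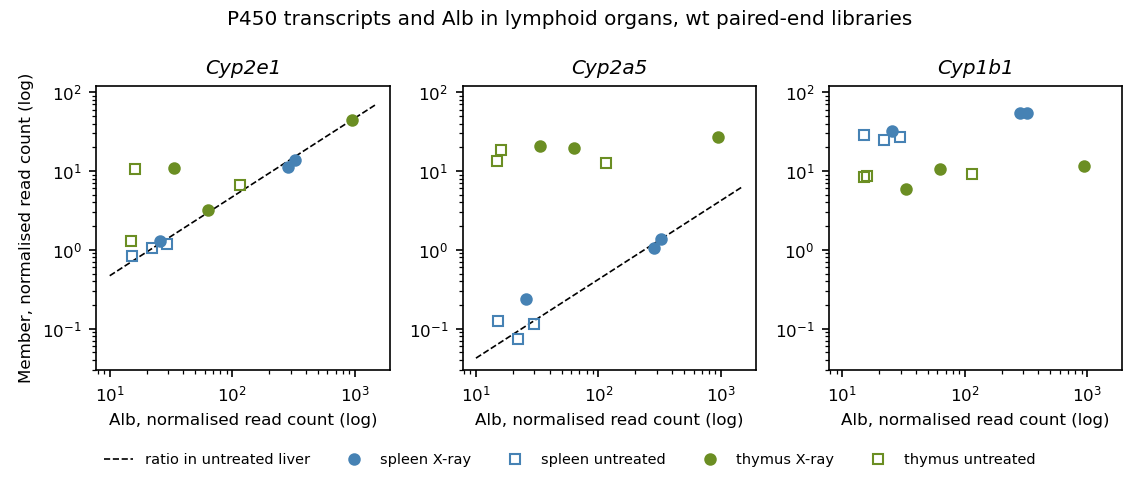
Signal of Cyp2e1, Cyp2a5 and Cyp1b1 against Alb in paired-end spleens and thymuses on log axes; filled points are X-ray libraries, open points are untreated ones and the dashed line is the ratio in untreated liver, which lies below the axis of the Cyp1b1 panel. The spleens lie along the line for Cyp2e1 (13.96 units at 325 of Alb in the second X-ray spleen), while Cyp2a5 in thymus and Cyp1b1 in both organs lie above it. For Cyp2e1 the first X-ray thymus (11.0) and the third untreated thymus (10.6) also lie well above the line.

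Between d24 and wt spleens, 1 of the 4 members tested rose; of the 13554 genes tested 2.28% passed in either direction and 1.04% rose. Cyp1b1 had 44.7, 75.4 and 65.0 units in spleens labelled d24 X-ray, against 19.6, 25.5 and 9.37 in those labelled wt X-ray, 1.81 ± 0.38 with an adjusted p of 0.0288. The d24 spleens were all above the wt spleens. Cdkn1a split the same libraries, as given above, and the B cell markers summed to 53.4 to 284 units in d24 spleens and to 441 to 556 in wt spleens, with 1 of 4 called lower. Of the 4 neutrophil markers 3 were called lower, with sums of 96.9 to 801 units in d24 spleens and 2123 to 6700 in wt spleens. The treatment field has X-rays for the d24 spleens and control for the wt spleens, so genotype and irradiation cannot be told apart here, and the part of the markers in the Cyp1b1 difference was not tested. The difference stayed between 1.24 and 2.11 over all settings. The call was lost under 8 of 17 alternatives, among them edgeR (adjusted p 0.0578), Xist as a covariate (0.832) and leaving out the first (0.0577), the second (0.142) or the third (0.115) d24 spleen. Xist was at 646, 546 and 702 units in d24 spleens, against 0.925, 830 and 0.376 in wt spleens, so that covariate largely follows the groups. The Y-linked gene Ddx3y was at 0.0290, 0.0691 and 0.0381 units in d24 spleens, against 83.8, 0.189 and 65.0 in wt spleens. Sex thus ran largely with the groups as well and cannot be told apart from genotype and irradiation. Cyp2s1 had 26.6, 10.4 and 14.96 units in d24 spleens, against 5.84, 9.25 and 5.56 in wt spleens, 1.20 ± 0.43 with an adjusted p of 0.223. In thymus none of the 8 members tested passed in limma, beside 0.00724% of the 13818 genes tested, and 2 had an unadjusted p under 0.05, beside 9.83% of all genes; DESeq2 called 1, Cyp2j6, beside 1.90% of all genes.

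The X-ray effect was compared between the 3 organs with an F test over the 18 paired-end libraries. These were taken as independent, though same-numbered organs of a group may share an animal. It differed for 3 of the 47 members tested, beside 30.4% of the 15654 genes tested. In the same comparison edgeR called 6 members, beside 26.6% of all genes, and DESeq2 12, beside 34.9%. Cyp2d22, a CYP2D enzyme expressed outside the liver too, differed by -0.31 in X-ray livers, by 0.40 in X-ray spleens and by 0.45 in X-ray thymuses (log2), with an adjusted p of 0.0394. Cyp2g1 differed by -0.55, 0.07 and 0.57 in the same organs, with an adjusted p of 0.0455, and it was at 0 to 0.0547 units in every spleen. Cyp2d34 differed by -0.48, 0.02 and -0.09, with an adjusted p of 0.0459, and stayed under 3 units in every liver. Per kilobase it was at 0 units in untreated spleens and at 0.0241 in untreated thymuses. It entered the test through liver, and its differences in the other organs were held near 0 by that floor. The test thus restates its liver difference, which did not pass by itself. For d24 against wt the same test called none of the 46 members tested, beside 0.976% of 16092 genes; 5 members had an unadjusted p under 0.05, beside 11.6% of all genes. DESeq2 called 3 members, beside 3.11% of all genes, and the smallest adjusted p in limma was 0.101 for Cyp2e1.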

How the data were processed

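Total RNA libraries were made with a stranded kit (TruSeq Stranded Total RNA) per the labels, and the 18 paired-end and 18 single-end libraries have a table each of deposited normalised signal per gene. Per the submitters' processing notes, edgeR and mm10 were used; the aligner, the counting tool and its strand setting are not stated. In both tables the deposited signal is whole reads divided by an effective library size, a CPM that carries a composition factor: within a library 100.0% of values came out as whole reads, to within 0.01 of a read. Plain CPM had been assumed, and the test for normalised values was kept. The paired-end libraries held 44348579 to 81322683 reads and the single-end ones 20481048 to 38042710, so 1 read was worth 0.00991 to 0.0828 units. Another 18 columns of the paired-end table could not be tied to any library here and stayed out. Gene numbers were matched to RefSeq symbols (GRCm38.p6) for 18380 of 19001 and 17186 of 17697 genes, and coding sequences came from GENCODE on GRCm38.

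Groups were taken from the titles, which the treatment field contradicts for 9 single-end libraries. The main test was limma 3.58.1 in R 4.3.3 (moderated, with a mean-variance trend, two-sided) on log2(signal + 0.5), a scale that understates the change of low genes. A gene entered when 3 or more libraries of the comparison had a signal of 1 or more. P-values were adjusted by Benjamini and Hochberg's method across every gene entered, at 0.05, and organs were compared by an F test per table. Scripts were tested on simulated data. Other settings tried were the pseudocounts 0.1 and 2, dropping the filter or asking for a mean of 5, limma without the trend, counts of recovered reads in edgeR 4.0.16 or DESeq2 1.42.0, joint fits of a whole table, Xist as a covariate, a replicate block and each library left out. Leaving out X-ray spleens 2 and 3, the highest in Alb, was added after seeing the data.

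Same-numbered libraries deviated together in X-ray and untreated spleen (correlations of 0.177, 0.241 and 0.191 between deviations from the group means). The same held between untreated spleen and untreated thymus (0.326, 0.317 and 0.154), which enter the comparison with untreated liver together; liver and either of them, and every other pair of groups compared, had at least 1 of 3 correlations at 0.1 or less. By Xist and Ddx3y, same-numbered liver, spleen and thymus of a paired-end group always had the same sex. They may come from the same animal, which the labels do not state. The main tests that join organs took their libraries as independent. The members, gene lists and tests were chosen with earlier results of these data known. Named are members that passed, up to 12 per liver comparison without overlap whose higher group averages 5 or more, the 10 highest in untreated liver, up to 6 examples per lymphoid comparison and 6 family heads (Cyp1a1, Cyp1a2, Cyp1b1, Cyp2b10, Cyp2e1, Cyp3a11); Cyp2s1, Cyp2d34, Cyp2d40 and Cyp2j6 in d24 thymus were named after their values were seen.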

Additional observations from a re-analysis of the deposited data

Results flagged for a closer look

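The X-ray effect of 3 members differed between liver, spleen and thymus in limma's F test over the 18 paired-end libraries. The F value was 6.04 for Cyp2d22, 5.66 for Cyp2g1 and 5.64 for Cyp2d34. Cyp2g1 in spleen and Cyp2d34 in spleen and thymus were near the floor, so their differences there were held near 0. Cyp2d22 had 232, 199 and 205 units in X-ray livers against 269, 298 and 227 in untreated livers, while its X-ray thymuses (2.53, 2.85 and 3.89) stood above the untreated ones (2.50, 2.03 and 1.82). Cyp2g1 had 19.2, 16.4 and 17.3 units in X-ray livers against 39.3, 30.5 and 14.7 in untreated livers. Leaving out a library gave 10 without the first X-ray liver, 7 without the first X-ray spleen and 0 to 4 without any other. These counts are given without the share of all genes called in the same fits. No group held enough libraries for a test of single outlying libraries.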

How the results depend on the processing

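The number of members called depended on the setting in every comparison. So did the share of all genes called: in X-ray liver it was 0.242% in the main setting, 3.84% with DESeq2 and 21.6% without the first X-ray liver. The counts below stand without that share. They show how calls moved and do not set the members apart from other genes. In X-ray liver it was 0, against 4 with DESeq2, 3 in 1 fit of all libraries and 0 to 15 with a library left out (15 without the first X-ray liver). In X-ray spleen it was 3, against 10 with no filter, 1 with a mean of at least 5 and 0 to 3 with a library left out. Without X-ray spleens 2 and 3 it was 0, which says nothing on stability, since these were picked as the high ones and the lone X-ray spleen is assumed to vary like the untreated ones. In X-ray thymus it was 4, against 0 with no filter, 1 with a mean of at least 5, 2 without trend, 1 in 1 fit of all libraries and 0 to 3 with a library left out. In d24 liver it was 1, against 0 without trend, 0 with edgeR, 4 with DESeq2 and 0 to 5 with a library left out. In d24 spleen it was 1, against 0 with no filter, 0 without trend, 0 with edgeR, 0 in 1 fit of all libraries, 0 with Xist as a covariate and 0 to 1 with a library left out. In d24 thymus it was 0, against 1 with DESeq2, 1 in 1 fit of all libraries and 0 with any library left out. Between untreated liver and the lymphoid organs it was 46, and 12 to 46 with a library left out, where fewer members met the filter without 1 of the 3 livers. For the X-ray effect by organ it was 3, against 6 with edgeR, 12 with DESeq2 and 0 to 10 with a library left out, and for the d24 effect by organ 0, against 2 with a pseudocount of 2, 3 with DESeq2 and 0 to 1. With the replicate number as a block, the paired X-ray spleens gave 2 calls; untreated spleen and thymus pair too, and the block left 46 calls between untreated liver and the lymphoid organs. In the other comparisons the correlations between same-numbered libraries did not show pairing. The block gave 0 calls there in d24 liver, 5 in X-ray thymus, 1 in d24 spleen and 1 for the X-ray effect by organ. Same-numbered organs of a paired-end group may still share an animal, since their sex markers matched. Over 33 results for single members and 557 alternatives, 470 kept their direction and side of the threshold, 58 lost the call, 20 gained it and 9 changed sign, none of these with a call on either side. The 9 were Cyp2e1 in X-ray liver (3 of them; -0.267 to 0.0519 with a library left out), Cyp3a11 in X-ray liver (1; -0.0680 to 0.574 with a library left out) and Cyp1b1 in d24 liver (5; -0.376 with a pseudocount of 0.1, -0.465 with Xist as a covariate and -0.526 to 0.837 with a library left out). The causes were not tested. Having 3 libraries a group, low reads in spleen and thymus and near-identical copies limit all of these values.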

Other observations

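Some P450 genes are sex-biased in adult mouse liver, and the labels give no sex. By Xist and the Y-linked gene Ddx3y, 2 of the 3 X-ray livers and 1 of the 3 untreated livers of the paired-end table were female. Cyp2b9, a female-biased enzyme in adult mouse liver, had 814, 479 and 382 units in X-ray livers and 720, 629 and 679 in untreated livers. Xist was at 625, 593 and 0.228 units in the same X-ray livers and at 589, 0.574 and 0.545 in the untreated ones, so the untreated livers without Xist held nearly as much Cyp2b9 as the one with it. Cyp2d9, a male-biased testosterone hydroxylase, had 197, 111 and 164 units in X-ray livers and 175, 202 and 124 in untreated livers, without the order of Ddx3y. In the single-end table Xist was at 0, 737 and 704 units in d24 livers and at 1.05, 581 and 0.302 in wt livers, so sex was uneven between those groups too. Sex was not tested beyond the fits with Xist as a covariate.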
